A study of Chlamydomonas reinhardtii with 27 samples.

Results

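The step from 8 h to 12 h of salt stress was described as the difference between the 3 libraries taken 12 h and the 3 libraries taken 8 h after NaCl was added, out of 27 libraries in the series. All genes of the count table entered it, 19267 identifiers, of which 16443 were abundant enough to be tested. The cells were C. reinhardtii GY-D55, a wild-type strain of a unicellular green alga, grown in BG-11 medium under a photoperiod of 16 h light and 8 h dark. Both groups had received 200 mM NaCl, so no untreated cells enter this difference, and the other 21 libraries (control cells without NaCl and salt for 2, 4, 24, 48, 72, and 96 h) served the shared estimate of the spread. The study states that experiments were done in triplicate, and the labels number 3 libraries per time point. Nothing says whether the 3 libraries of a time point came from separate flasks. The p-values of the main fit measure a spread between libraries within conditions, pooled over all 9 conditions. They do not measure a spread between cultures known to be separate. The sampling times were 4 h apart under a light-dark cycle whose phase at each harvest was not given. Hours in salt, time of day, and culture age cannot be told apart in this difference.

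High NaCl withdraws water from an algal cell and loads it with ions. C. reinhardtii is known to respond with glycerol as a compatible solute and with chaperones for misfolded proteins. Most photosynthetic proteins are encoded in the nucleus and imported into the chloroplast, while a smaller set, together with the ribosomal RNA of the organelle, is encoded in the chloroplast genome. Genes of the photosynthetic apparatus in this alga also follow the light-dark cycle.

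The total count ranged from 15286332 to 19697106 in the 8 h libraries and from 17683189 to 21292760 in the 12 h libraries. Expression is given as CPM, the count of a gene per fixed library size, with library sizes adjusted by TMM, a method that sets the bulk of genes to no change. The scaling factors were 1.17 to 1.25 at 8 h and 0.96 to 0.99 at 12 h, so the choice of scale matters here. With the total count as the library size in place of TMM, an alternative added after the data were seen, the log2 fold changes of all genes shifted by a median of -0.30. CPM are shares of a library, and a change in the number of cells in some state cannot be told apart from a change in RNA per cell.

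Between 8 h and 12 h, 4321 of the 16443 genes (26.3%) were differentially expressed (DEGs) at an adjusted p below 0.05 (edgeR quasi-likelihood test, Benjamini-Hochberg adjustment, any fold change). Of these, 2473 were upregulated (15.0% of the genes tested) and 1848 were downregulated (11.2%). With total counts as the scale, the split was 1150 upregulated and 2590 downregulated genes. Among upregulated DEGs, 1110 changed more than 2-fold, 250 more than 4-fold, and 102 more than 8-fold. Of these last 102, 64 carried DAA identifiers, the proteins of the chloroplast genome. The 67 DAA identifiers tested had a median level of only 0.217 CPM at 8 h. Among downregulated DEGs, 1012 changed more than 2-fold, 285 more than 4-fold, and 121 more than 8-fold, of which 106 were CHLREDRAFT genes, 15 were transcripts assembled by the authors, and none was a DAA identifier. The median log2 fold change was 0.94 among upregulated and -1.07 among downregulated genes, against -0.02 over all genes tested. The 8 h and 12 h libraries were the tightest and the third tightest of the 9 conditions, with a biological coefficient of variation of 0.0914 and 0.128, against 0.126 at 48 h and 0.461 at 2 h. Fitted alone, the 6 libraries gave more DEGs, 4304 upregulated (27.8% of 15495) and 4311 downregulated (27.8%), which included 2459 and 1826 of the DEGs above.

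The direction of change followed expression level. Of the 301 genes with a mean of 300 to 1000 CPM over the 6 libraries, 142 were upregulated (47.2%) and 19 downregulated (6.31%), and their median log2 fold change was 0.43. Of the 3768 genes between 3 and 10 CPM, 325 were upregulated (8.63%) and 440 downregulated (11.7%), with a median of -0.13. The 119 genes at or above 1000 CPM had a median of 0.43 as well, and 104 of them had a positive value, but only 13 were upregulated and 4 downregulated in the fit of 27 libraries, compared with 96 and 9 in the fit of the 6. With total counts as the scale, the median was -0.44 for the genes between 3 and 10 CPM, 0.12 for those between 300 and 1000 CPM, and 0.13 for those at or above 1000 CPM. The median of the 2857 genes between 30 and 100 CPM turned from 0.14 to -0.17 on that scale. The median rose with abundance on both scales.

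**Figure D1:**
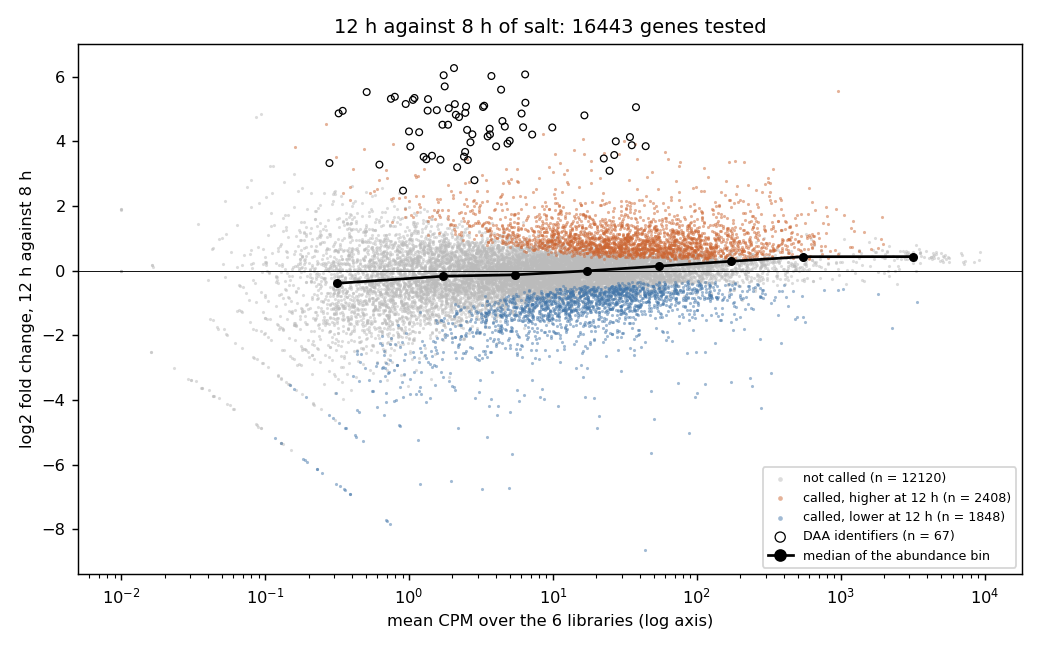
Log2 fold change at 12 h against 8 h (vertical axis) of the 16443 genes tested against their mean CPM over the 6 libraries (horizontal log axis). Colours mark DEGs, open circles the 67 DAA identifiers tested, and the black line joins the medians of 8 abundance bins, which run from -0.39 below 1 CPM to 0.43 at or above 1000 CPM.

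The named genes of the photosynthetic apparatus rose together. The study names 8 by identifier, and because the authors chose them on these libraries their direction is not independent evidence. Of the 8, 7 were upregulated and none was downregulated, and the median log2 fold change was 1.80. The 12 h libraries lay above all 8 h libraries for all 8, as for 29.8% of all genes tested. These genes had means between 30 and 1000 CPM over the 6 libraries, where that share was higher. It was 47.3% at 30 to 100 CPM, 62% at 100 to 300 CPM, and 73.8% at 300 to 1000 CPM. The shares called upward there were 28.1%, 39.1%, and 47.2%. The largest changes were in a pair of antenna genes of photosystem I. CHLREDRAFT_187025, which encodes a light-harvesting chlorophyll a/b protein, was at 12.2, 9.69, and 10.2 CPM in the 8 h libraries and 68.04, 84.1, and 86.1 CPM in the 12 h libraries (log2 fold change 2.89 ± 0.22 SE, adjusted p = 6.33e-11). CHLREDRAFT_136294, a second light-harvesting protein of photosystem I, was at 60.5, 48.4, and 49.9 CPM in the 8 h libraries and 289, 353, and 339 CPM in the 12 h libraries (log2 fold change 2.63 ± 0.21 SE, adjusted p = 1.73e-10). In both, every 12 h library stood far above every 8 h library. The core subunit III of photosystem I, CHLREDRAFT_130914, which docks the electron donor to the complex, was at 201, 185, and 183 CPM in the 8 h libraries and 507, 557, and 578 CPM in the 12 h libraries (log2 fold change 1.53 ± 0.17 SE, adjusted p = 1.16e-07).

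The oxygen-evolving enhancer proteins shield the manganese cluster of photosystem II, where water is split. OEE1 (CHLREDRAFT_130316) was at 292, 268, and 284 CPM in the 8 h libraries and 958, 1043, and 1111 CPM in the 12 h libraries (log2 fold change 1.88 ± 0.15 SE, adjusted p = 2.51e-10). OEE2 (CHLREDRAFT_33411) was at 169, 158, and 155 CPM in the 8 h libraries and 558, 605, and 645 CPM in the 12 h libraries (log2 fold change 1.91 ± 0.17 SE, adjusted p = 1.29e-09), and OEE3 (CHLREDRAFT_153656) at 171, 149, and 165 CPM in the 8 h libraries and 499, 533, and 555 CPM in the 12 h libraries (log2 fold change 1.71 ± 0.15 SE, adjusted p = 1.87e-09). These 3 genes moved by nearly the same factor, 3.68-fold, 3.75-fold, and 3.28-fold. Per length of transcript, OEE1 stood at 584 ± 44.1 FPKM at 12 h, above OEE2 at 376 ± 27.7 FPKM and OEE3 at 329 ± 17.9 FPKM (SD, n = 3). Their means in control cells, with which no test was made, were higher, at 3560.2 CPM for OEE1, 1782 CPM for OEE2, and 2312 CPM for OEE3.

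Less change was measured in 2 other genes of this group. The photosystem II stability/assembly factor CHLREDRAFT_112806, which helps to build and repair the complex, rose from 30.3 ± 2.38 to 57.3 ± 4.81 CPM (SD, n = 3 each, log2 fold change 0.92 ± 0.18 SE, adjusted p = 0.00034). RBCS (CHLREDRAFT_82986), the small subunit of Rubisco that fixes CO2, was at 258, 248, and 220.2 CPM in the 8 h libraries and 304, 315, and 332 CPM in the 12 h libraries (log2 fold change 0.39 ± 0.15 SE, adjusted p = 0.063). Its groups did not overlap, but it missed the threshold in the fit of 27 libraries and passed it in the fit of the 6 (adjusted p = 0.00013), without replicate 3 of control (adjusted p = 0.0366), and without replicate 1 of 2 h (adjusted p = 0.0413).

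Low-CO2-inducible genes serve the carbon-concentrating mechanism, which supplies Rubisco with CO2. CHLREDRAFT_148921 was at 417, 409.7, and 371 CPM in the 8 h libraries and 1048, 1132, and 1111 CPM in the 12 h libraries (log2 fold change 1.46 ± 0.15 SE, adjusted p = 2.89e-08). Its mean at 12 h was above the control mean of 993 CPM, with which no test was made. The study lists no significant difference from control at 12 h for this gene. For the chloroplast envelope protein CHLREDRAFT_189430, the corresponding values were 309, 323, and 279 CPM in the 8 h libraries and 379.8, 375, and 385 CPM in the 12 h libraries. That difference of 0.32 on the log2 scale did not pass in the fit of 27 libraries (adjusted p = 0.412), but did in the fit of the 6 (adjusted p = 0.000622). UDP-sulfoquinovose synthase (CHLREDRAFT_27658) makes the head group of sulfolipids, which are lipids of the thylakoid membrane. It was at 60.6, 52.9, and 53.7 CPM in the 8 h libraries and 232, 228, and 224 CPM in the 12 h libraries, a 4.098-fold rise (log2 fold change 2.03 ± 0.16 SE, adjusted p = 2.31e-10). Biotin carboxylase (CHLREDRAFT_122970), a subunit of the enzyme that commits carbon to fatty acid synthesis, overlapped between the groups (log2 fold change 0.34 ± 0.23 SE, adjusted p = 0.307).

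**Figure D2:**
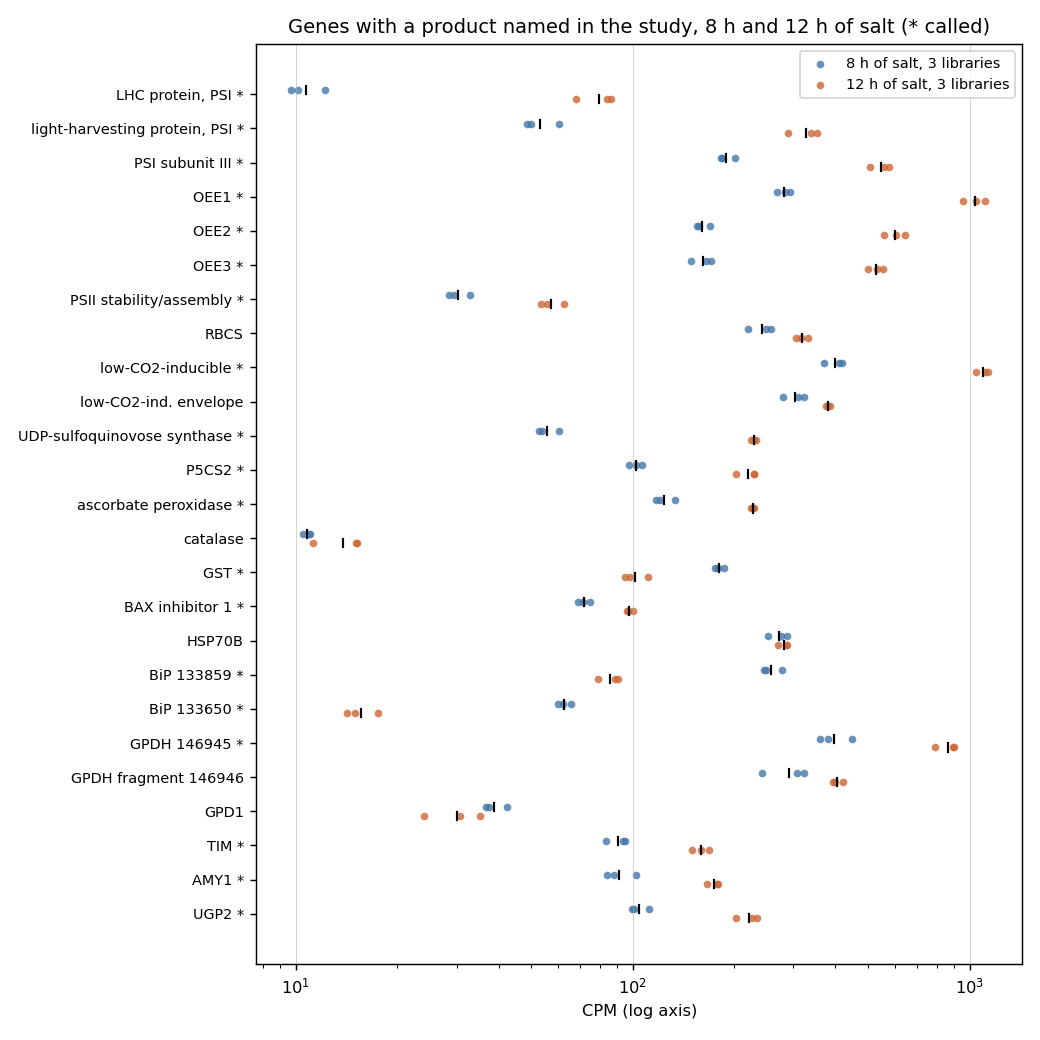
CPM (horizontal log axis) of 25 genes with a product named in the study in each of the 3 libraries of 8 h and the 3 of 12 h, with the mean as a black bar and an asterisk at DEGs. The 7 upregulated photosynthetic genes at the top stand apart to the right at 12 h, while both BiP genes and GST stand to the left and HSP70B overlaps.

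The genes of the endoplasmic reticulum chaperone BiP went the other way. BiP binds unfolded secretory proteins, and its expression is a standard readout of stress in that compartment. CHLREDRAFT_133859 was at 249.5, 278, and 245 CPM in the 8 h libraries and 88.4, 90.5, and 78.7 CPM in the 12 h libraries (log2 fold change -1.58 ± 0.15 SE, adjusted p = 5.43e-09). CHLREDRAFT_133650 was at 59.9, 65.7, and 61.9 CPM in the 8 h libraries and 17.5, 14.97, and 14.2 CPM in the 12 h libraries (log2 fold change -2.01 ± 0.26 SE, adjusted p = 1.34e-06). The second fell 4.01-fold, the larger change of the 2, and no 12 h library reached an 8 h library in either (29.7% of all genes tested lay wholly below). Per length, CHLREDRAFT_133859 was the higher of the 2 at both times, with 89.9 ± 5.93 against 31.3 ± 1.41 FPKM at 8 h and 29.1 ± 2.06 against 7.57 ± 0.831 FPKM at 12 h (SD, n = 3). The mean of CHLREDRAFT_133859 at 12 h was below its control mean of 178 CPM, while that of CHLREDRAFT_133650 was above its control mean of 1.99 CPM. Neither difference from control was tested. The 2 genes carry the RefSeq locus tags CHLRE_02g080600v5 and CHLRE_02g080700v5, close numbers on one chromosome, and how reads shared by similar genes were counted is not given in the sources used here.

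Other stress genes split. HSP70B (CHLREDRAFT_126835), a chaperone of the chloroplast, was at 252, 287, and 275 CPM in the 8 h libraries and 269, 287, and 285 CPM in the 12 h libraries (log2 fold change 0.05 ± 0.19 SE, adjusted p = 0.884). BAX inhibitor 1 (CHLREDRAFT_139760), a membrane protein that restrains cell death, rose from 71.7 ± 2.91 to 97.7 ± 2.39 CPM (log2 fold change 0.45 ± 0.16 SE, adjusted p = 0.0346). This call was lost when any 1 of the 6 libraries was left out (adjusted p = 0.064 to 0.108), with RLE size factors (adjusted p = 0.0577) and with total counts as the scale (log2 fold change 0.14, adjusted p = 0.611). P5CS2 (CHLREDRAFT_130812), an enzyme of proline synthesis, was at 103, 107, and 97.4 CPM in the 8 h libraries and 203, 229, and 229 CPM in the 12 h libraries (log2 fold change 1.11 ± 0.16 SE, adjusted p = 4.82e-06). Ascorbate peroxidase (CHLREDRAFT_192806), which removes hydrogen peroxide, was at 134, 121, and 118 CPM in the 8 h libraries and 229.9, 228, and 224 CPM in the 12 h libraries (log2 fold change 0.87 ± 0.18 SE, adjusted p = 0.000598). Glutathione S-transferase (CHLREDRAFT_195543), which couples glutathione to reactive compounds, fell from 181 ± 5.75 to 101 ± 8.58 CPM (log2 fold change -0.83 ± 0.13 SE, adjusted p = 1.08e-05). Catalase (CHLREDRAFT_190083), a second enzyme that degrades hydrogen peroxide, was at 10.5, 10.9, and 11.01 CPM in the 8 h libraries and 15.1, 15.1, and 11.2 CPM in the 12 h libraries and did not pass (log2 fold change 0.35 ± 0.19 SE, adjusted p = 0.187).

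Of the 6 genes that the study names for glycerol and starch, 3 were upregulated (15.0% of all genes tested were) and the other 3 did not pass. All but GS1 had means between 30 and 1000 CPM, where 28.1% to 47.2% of genes were upregulated, depending on the level. For a list of this size, 3 of 6 is near that share. Like the other genes named by the study, the 6 were chosen by the authors with the results of these libraries known. Glycerol is made from dihydroxyacetone phosphate, and glycerol-3-phosphate dehydrogenase (GPDH) catalyses the first step of that branch. GPDH CHLREDRAFT_146945 was at 361, 448, and 380.4 CPM in the 8 h libraries and 787, 894, and 901 CPM in the 12 h libraries (log2 fold change 1.12 ± 0.19 SE, adjusted p = 7.01e-05). A second GPDH gene, which the study lists as a fragment, CHLREDRAFT_146946, was at 242, 322, and 308 CPM in the 8 h libraries and 421, 394, and 399 CPM in the 12 h libraries. It did not pass in the fit of 27 libraries (log2 fold change 0.48 ± 0.26 SE, adjusted p = 0.189), but did without replicate 1 of 2 h (adjusted p = 0.0371) and in the fit of the 6 (adjusted p = 0.00011). Per length, the pair stood at 130.4 ± 14.8 and 136 ± 20.02 FPKM at 8 h, within the spread of the libraries, and at 275 ± 20.6 and 184 ± 6.703 FPKM at 12 h (SD, n = 3).

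GPD1 (CHLREDRAFT_94229), a further dehydrogenase of glycerol-3-phosphate, had 42.5, 36.6, and 37.5 CPM in the 8 h libraries and 30.8, 35.3, and 24.02 CPM in the 12 h libraries (log2 fold change -0.37 ± 0.16 SE, adjusted p = 0.0823). Without replicate 2 of 12 h, it passed with a log2 fold change of -0.50 (adjusted p = 0.0412), as it did with DESeq2 (adjusted p = 0.033) and total counts (adjusted p = 0.0222). Triosephosphate isomerase (CHLREDRAFT_26265), which feeds dihydroxyacetone phosphate, rose from 90.6 ± 6.31 to 159 ± 8.78 CPM (log2 fold change 0.82 ± 0.16 SE, adjusted p = 0.000344). Alpha-amylase AMY1 (CHLREDRAFT_173725), which opens the breakdown of starch, was at 83.8, 102, and 87.8 CPM in the 8 h libraries and 178, 179.7, and 166 CPM in the 12 h libraries, a rise (log2 fold change 0.94 ± 0.16 SE, adjusted p = 6.90e-05) that no longer passed with total counts as the scale (log2 fold change 0.63, adjusted p = 0.0707). GS1 (CHLREDRAFT_184987), the homolog of a glycerol-3-phosphatase that releases glycerol, was low, 3.57 ± 0.550 CPM at 8 h and 5.27 ± 0.552 CPM at 12 h, and did not pass (adjusted p = 0.192).

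Of 7 further genes of carbohydrate metabolism, 2 were upregulated (28.6%) and 1 was downregulated (14.3%), against 15.0% and 11.2% of all genes tested, which is near the background for a list of this size. UGP2 (CHLREDRAFT_157049), which makes UDP-glucose, was at 99.6, 112, and 101 CPM in the 8 h libraries and 202, 235, and 227 CPM in the 12 h libraries (log2 fold change 1.09 ± 0.22 SE, adjusted p = 0.00043). The pyruvate kinase genes, which close glycolysis, did not move as a group. CHLREDRAFT_118203 rose from 52.7 ± 2.38 to 83.4 ± 4.42 CPM (log2 fold change 0.66 ± 0.20 SE, adjusted p = 0.0136, but 0.36, adjusted p = 0.442 with total counts), whereas CHLREDRAFT_196261 fell from 85.7 ± 6.25 to 61.01 ± 3.65 CPM (log2 fold change -0.49 ± 0.15 SE, adjusted p = 0.0173). That fall lost its call without replicate 2 or 3 of 8 h or replicate 1 or 2 of 12 h (adjusted p = 0.0517 to 0.0725). For the third, CHLREDRAFT_196263, the groups overlapped at 107 ± 5.14 and 104 ± 1.73 CPM (adjusted p = 0.844). UDP-glucose 6-dehydrogenase, the galactose oxidase RUBY, and the glycosyltransferase UGT-80 (CHLREDRAFT_185081, CHLREDRAFT_196816, and CHLREDRAFT_154976) had log2 fold changes of 0.06, 0.17, and 0.24 and did not pass (adjusted p = 0.407 to 0.809). EF1ALPHA (CHLREDRAFT_132905), the reference gene of the study's qRT-PCR, was among the most abundant transcripts at 6579 ± 236 and 8108 ± 84.9 CPM (SD, n = 3, adjusted p = 0.496). Its log2 fold change was 0.30 on the TMM scale and -0.0015 with total counts. On the TMM scale every 12 h library lay above every 8 h library, as for 80.7% of genes at or above 1000 CPM. At that level the median standard error in the fit of 27 libraries was 0.32.

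Among transcription factors (TFs), falls outnumbered rises. The authors list 113 homologs of Arabidopsis TFs, chosen on these libraries, of which 112 were tested, 10 were upregulated (8.93%), and 18 were downregulated (16.1%), against 15.0% and 11.2% of all genes tested. Their median log2 fold change was -0.12. The TFs were not compared with genes of the same expression level, with which the direction of change varied. Of all genes tested, 8.63% were upregulated and 11.7% downregulated at 3 to 10 CPM, and 28.1% and 15.3% at 30 to 100 CPM. The MYB family, which in plants regulates metabolism, development, and stress, had 5 of 18 members downregulated and none upregulated in the fit of 27 libraries. These numbers were 8 and 2 at an unadjusted p below 0.05 (edgeR), and 7 and 0 with DESeq2. In the fit of the 6 libraries, 8 of 16 MYB members tested were downregulated and 2 upregulated. In the C3H zinc finger family the fit of 27 libraries called 4 downregulated and 2 upregulated of 19. In the AP2/ERF family, which in plants holds ethylene and drought regulators, it called 3 and 1 of 10. RWP factors, which in this alga include regulators of nitrogen use and gamete formation, split into 2 upregulated and 2 downregulated of 10, and SBP factors into 2 upregulated and 1 downregulated of 8. The C2C2 family had 1 downregulated member of 7 and the C2H2 family 1 of 5, and the GARP and bHLH families 1 upregulated member each of 5 and 3. In the fit of 27 libraries, edgeR called none of 25 members tested in the Alfin, NF, HB, PLATZ, E2F, bZIP, CPP, TUB, B3, BSD, CAMTA, MADS, or Trihelix families (2 upward and 2 downward at an unadjusted p below 0.05), and neither did DESeq2. The fit of the 6 libraries called 3 of these 25 as upregulated and 7 as downregulated, and total counts called 1, the Alfin gene CHLREDRAFT_127913, as downregulated (adjusted p = 0.00398). With total counts as the scale, 6 TFs were upregulated and 24 downregulated, and in the fit of the 6 libraries 22 and 40.

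The highest rise in the list was that of the CSD gene CHLREDRAFT_126810, a family of cold shock domain proteins that bind nucleic acids. It was at 4.95, 4.46, and 4.49 CPM in the 8 h libraries and 63.96, 73.8, and 69.9 CPM in the 12 h libraries (log2 fold change 3.90 ± 0.19 SE, adjusted p = 2.44e-14), a 14.9-fold rise that left it below its control mean of 495 CPM. Of the called TFs with the highest expression, all 4 were upregulated. The C3H gene CHLREDRAFT_205729 was at 489, 557, and 522 CPM in the 8 h libraries and 661, 683, and 709.8 CPM in the 12 h libraries (log2 fold change 0.39 ± 0.12 SE, adjusted p = 0.0166), a call that was lost without replicate 1 or 3 of 8 h or replicate 3 of 12 h (adjusted p = 0.0524 to 0.0847) and with total counts (0.09, adjusted p = 0.691). The AP2/ERF gene CHLREDRAFT_190235 rose from 270.1 ± 11.3 to 415 ± 22.6 CPM (log2 fold change 0.62 ± 0.12 SE, adjusted p = 0.00017) and the SBP gene CHLREDRAFT_191464 from 115 ± 3.09 to 175 ± 1.91 CPM (0.61 ± 0.13 SE, adjusted p = 0.000527). Neither call held with total counts (adjusted p = 0.115 and 0.35). A transcript assembled by the authors and matched to a bHLH factor was at 162, 204, and 199 CPM in the 8 h libraries and 396, 481, and 510.4 CPM in the 12 h libraries (log2 fold change 1.29 ± 0.18 SE, adjusted p = 4.57e-06).

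Of the 7 TFs that the study names in its text, 2 were downregulated (28.6%, against 11.2% of all genes tested) and the other 5 did not pass. The homolog of MYB88 (CHLREDRAFT_205725), a regulator of stomatal cell divisions in Arabidopsis, was at 36.4, 38.6, and 35.95 CPM in the 8 h libraries and 24.4, 19.2, and 17.5 CPM in the 12 h libraries (log2 fold change -0.86 ± 0.15 SE, adjusted p = 8.48e-05). The only WRKY factor of the list, CHLREDRAFT_205718, of a family tied to defence and stress in plants, was at 88.7, 98.04, and 86.2 CPM in the 8 h libraries and 56.9, 58.97, and 57.2 CPM in the 12 h libraries (log2 fold change -0.66 ± 0.16 SE, adjusted p = 0.0026). The Alfin gene CHLREDRAFT_127913, the C2C2 genes CHLREDRAFT_205871 and CHLREDRAFT_171659, the MYB gene CHLREDRAFT_168936, and the RWP gene CHLREDRAFT_195915 had log2 fold changes from -0.44 to 0.26 and did not pass (adjusted p = 0.104 to 0.934). Of all 7, 5 had every 12 h library below every 8 h library and 1 had every 12 h library above. Among all genes tested these shares were 29.7% and 29.8%. Several falls among other members, picked after their values were seen, were larger. An assembled transcript matched to a MYB factor was at 62.6, 57.1, and 44.9 CPM in the 8 h libraries and 13.6, 18.3, and 16.2 CPM in the 12 h libraries (log2 fold change -1.78 ± 0.21 SE, adjusted p = 3.20e-07), and the C2H2 zinc finger gene CHLREDRAFT_145274 at 46.3, 53.2, and 53.9 CPM in the 8 h libraries and 19.2, 13.9, and 16.4 CPM in the 12 h libraries (log2 fold change -1.63 ± 0.42 SE, adjusted p = 0.0045). The RWP gene CHLREDRAFT_205642 fell from 48.9 ± 3.58 to 17.9 ± 1.37 CPM (log2 fold change -1.45 ± 0.21 SE, adjusted p = 6.54e-06), while another RWP gene, CHLREDRAFT_195840, rose from 7.12 ± 1.55 to 20.6 ± 1.69 CPM (1.53 ± 0.25 SE, adjusted p = 3.33e-05).

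**Figure D3:**
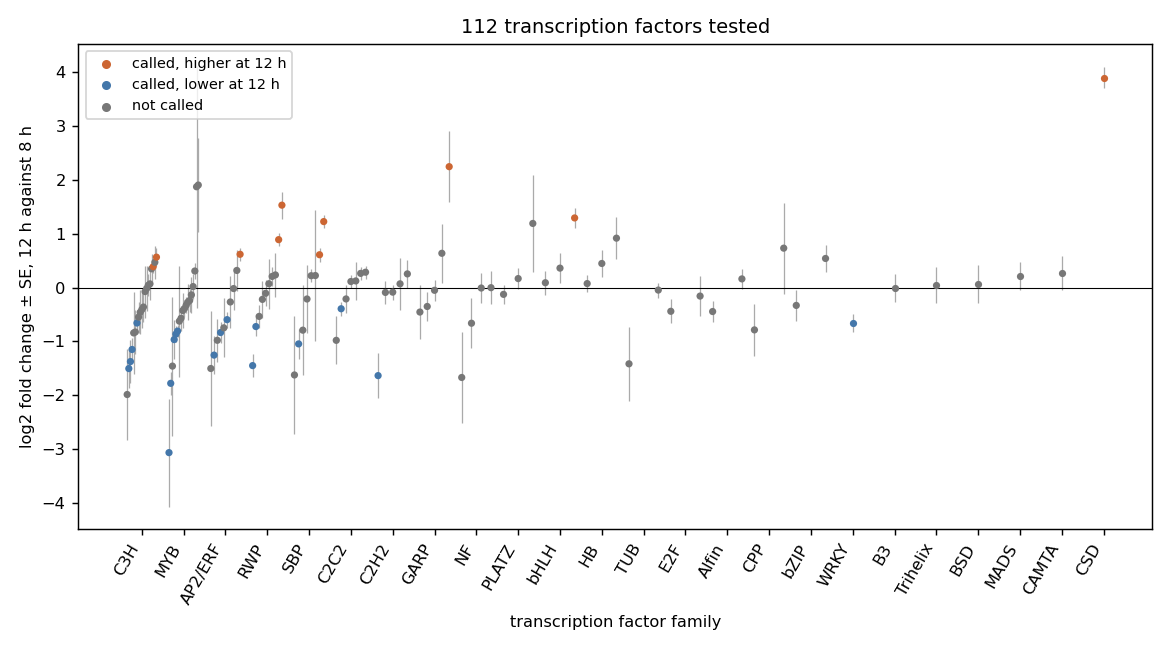
Log2 fold change at 12 h against 8 h with its SE (vertical axis) of the 112 TFs tested, by family (horizontal axis), with DEGs in colour. The CSD gene lies highest at 3.90, and the 18 MYB genes hold 5 downregulated and no upregulated member in the fit of 27 libraries.

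The 10 genes with the steepest falls had mean levels of 9.65 to 527 CPM at 8 h and 0.0793 to 27.6 CPM at 12 h. Genes are named here among DEGs with a mean of at least 100 counts over the 6 libraries and no overlap between the groups. None of the 10 lowest is given a name or function by the study, so they are described by expression alone. CHLREDRAFT_16132 (CHLRE_18g750047v5) was at 85.8, 85.1, and 88.9 CPM in the 8 h libraries and 0.165, 0, and 0.428 CPM in the 12 h libraries, which rest on 1941, 1968, and 1703 counts at 8 h and 3, 0, and 9 counts at 12 h (log2 fold change -8.64 ± 0.53 SE, adjusted p = 1.37e-12). CHLREDRAFT_156833 was at 90.6, 91.2, and 98.6 CPM in the 8 h libraries and 1.49, 2.49, and 1.62 CPM in the 12 h libraries (log2 fold change -5.65 ± 0.49 SE, adjusted p = 8.52e-10). CHLREDRAFT_166317 was at 181, 160.3, and 175 CPM in the 8 h libraries and 5.45, 4.57, and 5.899 CPM in the 12 h libraries (log2 fold change -5.02 ± 0.23 SE, adjusted p = 1.25e-14), and CHLREDRAFT_193170 at 90.6, 109.7, and 88.02 CPM in the 8 h libraries and 4.13, 4.45, and 3.28 CPM in the 12 h libraries (log2 fold change -4.60 ± 0.31 SE, adjusted p = 9.65e-12). CHLREDRAFT_189582 and CHLREDRAFT_183259 fell from 39.3 and 39.9 CPM to 1.34 and 1.78 CPM. CHLREDRAFT_158519, CHLREDRAFT_191962, and CHLREDRAFT_175901 stood near 10 CPM at 8 h, 9.65 to 10.2, and below 0.5 CPM at 12 h. The most abundant of the 10 was CHLREDRAFT_128766 at 555, 546, and 479 CPM in the 8 h libraries and 29.5, 29.3, and 23.97 CPM in the 12 h libraries (log2 fold change -4.25 ± 0.20 SE, adjusted p = 2.12e-14).

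These genes were picked for their fall, so a higher level at 8 h than at 12 h was given in advance. CHLREDRAFT_156833 and CHLREDRAFT_166317 were also low at 4 h and 24 h. CHLREDRAFT_156833 had a mean of 1.03 CPM at 4 h, 93.4 CPM at 8 h, and 3.63 CPM at 24 h, and CHLREDRAFT_166317 had 5.27, 172, and 8.45 CPM. At 96 h CHLREDRAFT_16132 was at 0.432 CPM and CHLREDRAFT_189582 at 0. CHLREDRAFT_128766 differed, since it stood at 131 CPM at 4 h already and at 164 CPM again at 96 h. Only 1 gene went from at least 100 counts in every 8 h library to at most 3 in every 12 h library, CHLREDRAFT_194368, with 161, 121, and 129 against 1, 0, and 2 counts. Against a floor of 3 counts per library, it was at least 39.9-fold lower at 12 h. With a minimum of 20 counts in place of 100, there were 15 such genes, and 13 in the opposite direction, of which 12 were DAA identifiers.

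**Figure D4:**
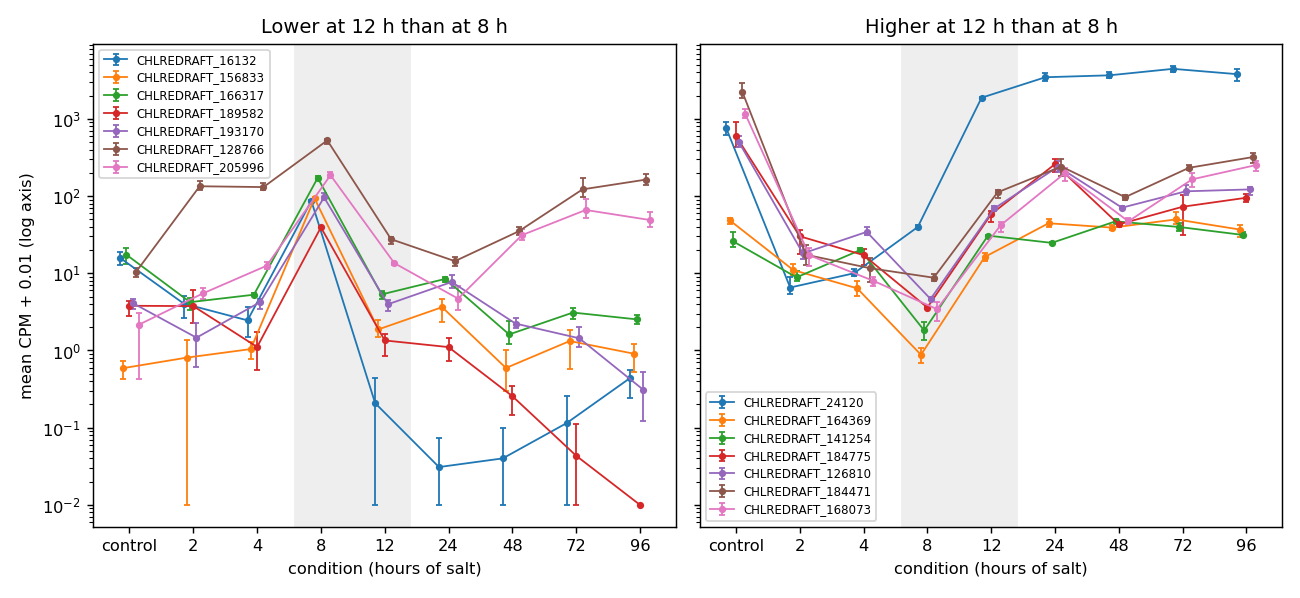
Mean CPM plus 0.01 (vertical log axis) over the 9 conditions (horizontal axis, hours of salt) of 7 genes that fell (left) and 7 that rose (right) from 8 h to 12 h, with bars from the lowest to the highest of 3 libraries and the step shaded. The falling genes peak at 8 h, and the rising genes other than CHLREDRAFT_24120 are at their lowest at 8 h.

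The largest rise outside the DAA identifiers was that of CHLREDRAFT_24120 (CHLRE_04g223100v5), to which the sources used here give no function. It was at 38.5, 42.8, and 37.99 CPM in the 8 h libraries and 1869, 1846, and 1926.5 CPM in the 12 h libraries, or 47.3-fold higher at 12 h (log2 fold change 5.56 ± 0.22 SE, adjusted p = 7.00e-16). Its count rose from 871, 989, and 728 to 33929, 31934, and 40498, and its mean went on to 3465 CPM at 24 h and 4450.4 CPM at 72 h, from 751 CPM in control and 6.53 CPM at 2 h. Of the 10 genes with the largest rise by the rule above, 8 were DAA identifiers, and the only one besides these and CHLREDRAFT_24120 was CHLREDRAFT_164369 at 1.06, 0.865, and 0.678 CPM in the 8 h libraries and 16.03, 18.3, and 14.5 CPM in the 12 h libraries (log2 fold change 4.21 ± 0.24 SE, adjusted p = 2.96e-13). Below these in rank, chosen after their values were seen, came CHLREDRAFT_141254, CHLREDRAFT_184775, CHLREDRAFT_126810, CHLREDRAFT_180086, CHLREDRAFT_184471, CHLREDRAFT_168073, CHLREDRAFT_186299, and CHLREDRAFT_184614, with log2 fold changes from 3.59 to 4.08. CHLREDRAFT_184471 was at 9.86, 8.57, and 7.83 CPM in the 8 h libraries and 95.1, 121, and 119 CPM in the 12 h libraries, and CHLREDRAFT_168073 at 3.67, 2.42, and 4.17 CPM in the 8 h libraries and 34.3, 45.7, and 46 CPM in the 12 h libraries. Both had been far higher in control cells, with means of 2245 and 1140.1 CPM. CHLREDRAFT_141254, in contrast, was at 1.77, 2.29, and 1.36 CPM in the 8 h libraries and 30.5, 31.5, and 30.3 CPM in the 12 h libraries. At 12 h it stood above its control mean of 26.1 CPM, a difference that was not tested.

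By the amount of transcript, other genes led. The largest fall in mean CPM was that of CHLREDRAFT_184151, at 3599, 3622, and 3367 CPM in the 8 h libraries and 1098, 993, and 1027 CPM in the 12 h libraries (log2 fold change -1.76 ± 0.16 SE, adjusted p = 2.77e-09). CHLREDRAFT_145770 was at 4544, 4612, and 4338 CPM in the 8 h libraries and 2389, 2262, and 2278 CPM in the 12 h libraries (log2 fold change -0.96 ± 0.15 SE, adjusted p = 1.52e-05), CHLREDRAFT_24524 at 2119.6, 2503, and 2194 CPM in the 8 h libraries and 1385, 1347, and 1348 CPM in the 12 h libraries (log2 fold change -0.74 ± 0.18 SE, adjusted p = 0.00274), and CHLREDRAFT_135856 fell from 841 ± 39.7 to 279 ± 21.9 CPM (log2 fold change -1.59 ± 0.20 SE, adjusted p = 7.87e-07). Among the 5 largest falls, CHLREDRAFT_146801 did not pass in the fit of 27 libraries (adjusted p = 0.131), although its libraries did not overlap. The 5 largest rises were those of CHLREDRAFT_195605, CHLREDRAFT_159282, CHLREDRAFT_132716, CHLREDRAFT_195584, and CHLREDRAFT_206126, and only the last was called. CHLREDRAFT_206126 was at 919, 1046, and 858 CPM in the 8 h libraries and 2871, 2984, and 2957 CPM in the 12 h libraries (log2 fold change 1.64 ± 0.19 SE, adjusted p = 2.60e-07). The other 4 stood between 5599 and 8022 CPM at 8 h and between 8038 and 10956 CPM at 12 h, with log2 fold changes from 0.34 to 0.56 and adjusted p from 0.242 to 0.513. All 4 passed in the fit of the 6 libraries.

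The DAA identifiers, which are proteins encoded in the chloroplast genome, rose almost as a whole. Libraries were made from RNA captured on poly-T beads, and chloroplast transcripts mostly lack the long poly(A) tail of nuclear mRNA, so these counts are a small sample of them. Of 69 identifiers, 67 were tested and 65 were upregulated (97.0%, against 15.0% of all genes tested). The median log2 fold change was 4.43, with a range from 2.47 to 6.26. The median of their mean levels was 0.217 CPM at 8 h and 4.69 CPM at 12 h, so the sizes rest on few counts at 8 h. The filter on low counts could be passed through the libraries of 12 h and later alone. An upward call was then likely in advance, so 97.0% against 15.0% is a description only. The joint share of the counts on DAA identifiers was 0.00764%, 0.00520%, and 0.00403% in the 8 h libraries and 0.0675%, 0.128%, and 0.0380% in the 12 h libraries. The lowest 12 h library was above the highest 8 h library (exact permutation test, two-sided p = 0.1, the smallest that 3 against 3 allow). Replicate 2 of 12 h had the highest value for 65 of the 67, and without it the ratio of the mean shares was 9.38 in place of 13.8. DAA00908 was at 2.47, 2.38, and 1.72 CPM in the 8 h libraries and 62.3, 124, and 33.6 CPM in the 12 h libraries (log2 fold change 5.05 ± 0.56 SE, adjusted p = 8.20e-08), and DAA01471, the most abundant at 12 h, at 7.999, 5.45, and 3.65 CPM in the 8 h libraries and 68.3, 139, and 39.7 CPM in the 12 h libraries (log2 fold change 3.84 ± 0.59 SE, adjusted p = 1.23e-05). DAA00949 and DAA00933 rose by 4.13 and 3.87 on the log2 scale. DAA00915, DAA00912, DAA00936, DAA00951, DAA00904, DAA00958, and DAA00940 had log2 fold changes from 4.21 to 6.06 from means below 1.2 CPM at 8 h. Before 8 h the joint share had been 0.00184% to 0.00531% in every control, 2 h, and 4 h library, and after 12 h it ran from 0.0694% in a 24 h library to 0.0197% in a 96 h library.

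**Figure D5:**
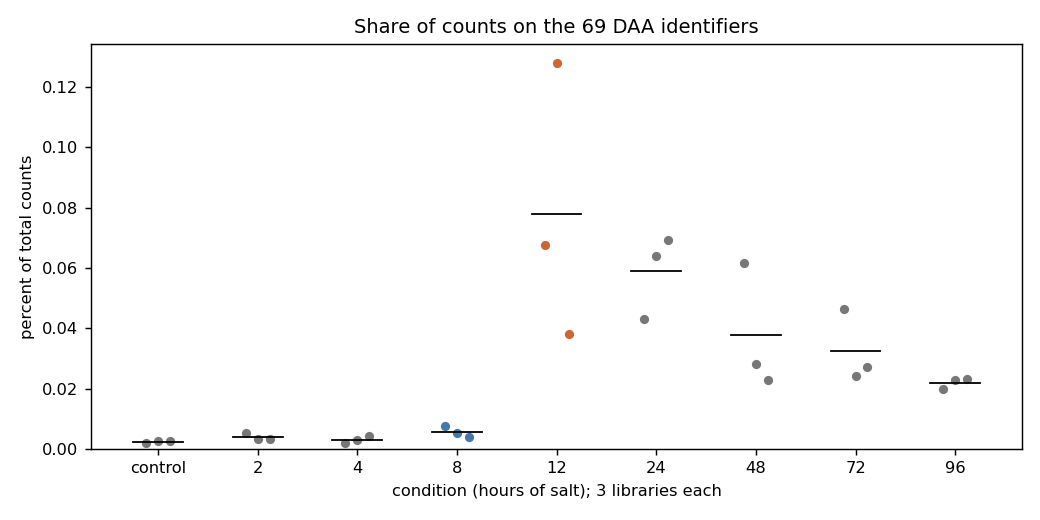
Percent of the total count on the 69 DAA identifiers (vertical axis) in each of the 27 libraries by condition (horizontal axis, hours of salt), with the mean of 3 libraries as a bar. The 12 h libraries lie between 0.0380% and 0.128%, and the 8 h libraries between 0.00403% and 0.00764%.

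Of the 8 AAB identifiers, which are proteins of the mitochondrial genome, all were tested and none was called by edgeR (0 at an unadjusted p below 0.05) or DESeq2, with log2 fold changes from -0.27 to 0.75. In the fit of the 6 libraries, 1 was upregulated. AAB93443, the most abundant, was at 30.6, 26.5, and 33.1 CPM in the 8 h libraries and 28.98, 28.2, and 27.1 CPM in the 12 h libraries. Their joint share of the total count was 0.00937% ± 0.000791 at 8 h and 0.00782% ± 0.000525 at 12 h (SD, n = 3, exact permutation test, two-sided p = 0.1), but on the TMM scale the 12 h share was the higher one. Of 56 EPCRG identifiers, 10 were abundant enough to be tested and 2 were upregulated, near the 15.0% of all genes tested. These were EPCRG00000000020 at 1.94, 1.904, and 1.67 CPM in the 8 h libraries and 16.5, 24.6, and 9.75 CPM in the 12 h libraries and EPCRG00000000009 at 0.928, 0.736, and 1.2 CPM in the 8 h libraries and 7.66, 12.2, and 5.38 CPM in the 12 h libraries. Over the 10 tested, the median log2 fold change was 1.88, with a range from -1.25 to 3.19. In 6 of the 10 every 12 h library lay above every 8 h library, against 29.8% of all genes tested. In 1 every 12 h library lay below, against 29.7%. The joint share of the 56 was 0.0168% ± 0.00298 at 8 h and 0.0237% ± 0.00467 at 12 h (SD, n = 3, exact permutation test, two-sided p = 0.2). The ENSRNA identifiers, which are noncoding RNAs, took 0.0420%, 0.0503%, and 0.0436% of the counts at 8 h and 0.0280%, 0.0281%, and 0.0248% at 12 h (exact permutation test, two-sided p = 0.1), and 1 of 32 tested was called. That one, ENSRNA049446874, fell from 18.4 ± 2.27 to 9.496 ± 2.098 CPM (log2 fold change -0.95 ± 0.32 SE, adjusted p = 0.0286), but not without replicate 1 or 3 of 8 h or replicate 2 or 3 of 12 h (adjusted p = 0.0615 to 0.13).

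Transcripts that the authors assembled themselves were called in both directions. Of 3358 tested, 357 were upregulated (10.6%) and 278 downregulated (8.28%), against 15.8% and 12.1% of 12968 CHLREDRAFT genes. The most abundant called one was at 834, 920.5, and 894 CPM in the 8 h libraries and 1953, 2083, and 2071 CPM in the 12 h libraries (log2 fold change 1.21 ± 0.16 SE, adjusted p = 1.53e-06). The 3 called ones next in abundance had log2 fold changes of 0.62, 0.45, and 1.10. The first of these lost its call with total counts (adjusted p = 0.324) and without any 1 of the 6 libraries other than replicate 1 of 12 h (adjusted p = 0.0614 to 0.0802). The second lost it with total counts (adjusted p = 0.644) and without replicate 1 or 3 of 8 h or replicate 3 of 12 h (adjusted p = 0.0552 to 0.0637). In the opposite direction, one transcript was at 641, 645, and 625 CPM in the 8 h libraries and 137, 131, and 136 CPM in the 12 h libraries (log2 fold change -2.24 ± 0.15 SE, adjusted p = 4.60e-12), and another fell from 795 ± 33.8 to 293 ± 15.3 CPM (log2 fold change -1.44 ± 0.14 SE, adjusted p = 1.49e-08).

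Neighbouring genes were compared through the order of RefSeq genes, in which 12541 of the 19267 identifiers were found. Over 8228 pairs of adjacent tested genes, the log2 fold changes had a Pearson correlation of 0.106, against 0.0317 for 8016 pairs 2 places apart and 0.00786 for 7778 pairs 10 places apart. These are descriptions across genes of the same libraries, and genes are not independent replicates. In 838 adjacent pairs both genes were DEGs, and 522 of these (62.3%) moved in the same direction, compared with 362 of 659 pairs (54.9%) at 10 places. There were 12 runs of at least 4 consecutive genes called in one direction, 7 upward and 5 downward. The longest held 5 genes. How many such runs the share of genes called would give without any effect of order was not computed. One falling run, CHLRE_04g222600v5 to CHLRE_04g222800v5, held CHLREDRAFT_183401, CHLREDRAFT_170976, CHLREDRAFT_145770, CHLREDRAFT_128766, and CHLREDRAFT_205996, with log2 fold changes of -2.08, -2.32, -0.96, -4.25, and -3.78. Its last member was at 206, 181, and 173 CPM in the 8 h libraries and 14.05, 12.7, and 13.8 CPM in the 12 h libraries. Neighbours can overlap, and whether reads were counted by strand is not given in the sources used here.

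The differences of 4 h against control and of 48 h against 24 h share no library with this one, although all came from one fit. Of the 2473 genes upregulated from 8 h to 12 h, 1131 (45.7%) were downregulated at 4 h against control, against 28.6% of all genes tested, and 606 (24.5%) were upregulated there, against 28.0%. Of the 1848 downregulated genes, 946 (51.2%) were upregulated at 4 h against control and 417 (22.6%) downregulated. Read the other way, the 1131 genes were 24.1% of the 4700 downregulated at 4 h, and the 946 were 20.5% of the 4610 upregulated. At 48 h against 24 h, which sets the same hour of the day side by side, 447 of the 2473 (18.1%) were downregulated and 227 (9.18%) upregulated, against 7.46% and 6.42% of all genes tested. Of the 1848 downregulated genes, 226 (12.2%) were downregulated and 196 (10.6%) upregulated there, against the same shares of all genes tested. These shares are descriptions across genes. They were not matched for expression level, although the share upregulated from 8 h to 12 h was 1.51% below 1 CPM and 47.2% at 300 to 1000 CPM. Nor were they repeated with total counts as the scale.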

How the data were processed

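Total RNA was captured on poly-T beads and sequenced as paired-end reads. The authors aligned reads with HISAT2 (2.0.5), assembled additional transcripts with StringTie (1.3.3b, both per the submitters' processing notes), and counted reads per gene with featureCounts. The deposited tables hold these raw counts and the authors' FPKM values (scaled for transcript length and library size), and FPKM served only to compare levels between genes. Strand setting and treatment of multiply mapped reads are not given in the sources used here. Raw counts of all 27 libraries were fitted by condition in edgeR (4.0.16, TMM scaling, default filter on low counts, quasi-likelihood test, R 4.3.3), and p-values were adjusted by Benjamini-Hochberg over all genes tested. The script was tested on simulated data. Libraries of a condition differed by more than sampling noise. Shares of counts were compared by an exact permutation test.

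Genes were named if the study names them by identifier, if they were among the 10 largest or 10 lowest log2 fold changes of DEGs with a mean of at least 100 counts and no overlap, if they were among the 5 largest rises or falls in mean CPM, or as the most abundant called members of a list (up to 4, and 2 in the opposite direction). Transcripts assembled by the authors are described without identifiers. Lists based on gene symbols (27) found no member, because the reference annotation gave no symbols, and were not used. Members and lists were chosen with earlier results of these data known. The alternatives were DESeq2 (1.42.0), limma voom (3.58.1), RLE size factors, total counts, other filters, a fit of the 6 libraries alone, replicate number as a block, a 2-fold threshold, and each library left out in turn. The scale by total counts and a fit without the 2 h and 72 h libraries were added after the data were seen.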

Additional observations from a re-analysis of the deposited data

How the results depend on the processing

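No gene called from 8 h to 12 h was called in the opposite direction under any alternative. Counts of upregulated and downregulated genes were 4304 and 4311 with only the 6 libraries, 4229 and 4015 with DESeq2 on the 6, 4409 and 4482 with limma voom weighted per condition, and 1110 and 1012 with a 2-fold threshold. With total counts in place of TMM, they were 1150 and 2590. The cause of these differences was not tested. Without 1 library in turn, upregulated genes ranged from 1902 (without replicate 3 of 8 h) to 2877 (without replicate 1 of 2 h), and downregulated genes from 1267 (without replicate 3 of 12 h) to 2192 (without replicate 1 of 2 h). Without all libraries of 2 h and 72 h, they were 3167 and 2497. Same-numbered 8 h and 12 h libraries correlated at 0.0537, -0.0150, and 0.0644 in their deviations from the group means. Pairs of different numbers ranged from -0.0681 to 0.0239. Values this small, from 3 libraries per group, cannot settle whether same-numbered libraries shared a flask or batch. Replicate number as a block gave 2467 and 1822 genes in the fit of 27 libraries and 4380 and 4402 in the fit of the 6.

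The sign turned only in uncalled genes of those named. With total counts, log2 fold changes were -0.25 for CHLREDRAFT_126835, -0.25 for CHLREDRAFT_185081, -0.059 for CHLREDRAFT_154976, -0.14 for CHLREDRAFT_196816, -0.038 for CHLREDRAFT_205871, -0.23 for CHLREDRAFT_195915, and -0.0015 for CHLREDRAFT_132905. With at least 10 counts in every library, they were -0.026, -0.018, and -0.0039 for CHLREDRAFT_126835, CHLREDRAFT_185081, and CHLREDRAFT_195915. Without 1 library in turn, CHLREDRAFT_126835 ranged from -0.00066 (without replicate 1 of 8 h) to 0.092, and CHLREDRAFT_195915 from -0.12 (without replicate 2 of 12 h) to 0.17, with -0.0065 without replicate 2 of 8 h. CHLREDRAFT_127913 passed with total counts (log2 fold change -0.74, adjusted p = 0.00398), with at least 10 counts in every library (adjusted p = 0.0478), and without the 2 h and 72 h libraries (adjusted p = 0.0432). As shares of the TMM-scaled library size, the log2 ratio of 12 h to 8 h was 0.19 for assembled transcripts and 0.044 for AAB identifiers, both lower at 12 h as shares of the total count, -0.45 for ENSRNA identifiers, and 0.39 for genes at or above 1000 CPM. Genes below 1 CPM had a median standard error of 1.04 on the log2 scale, against 0.16 between 100 and 300 CPM, and 31 of the 2056 genes below 1 CPM were upregulated and 81 downregulated.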
